A study of Caenorhabditis elegans with 2 samples.

Results

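HIM-1-GFP binding was examined at 41 genes that act in oocytes and in the eggs made from them. They comprise 13 genes of the eggshell and of egg activation, the gene of the yolk receptor, 11 genes of germline RNA regulators of the PUF, GLD, DAZ and Nanos groups, 10 genes of RNA-binding proteins of the oocyte and early embryo, the genes of the maternally supplied regulators GLP-1 and SKN-1, and 4 genes of proteins that store mRNA. The genes were listed by name for their known roles, with earlier results of these data known. Their shares therefore describe the list and are not a test of enrichment. They were placed with the Ensembl annotation, where all 41 were found among 19973 protein-coding genes of the 5 autosomes and X. A gene was counted as bound at an end where a peak summit lay within 500 bp of its 5' end or of its 3' end, and in the body where a summit lay between the ends. A summit counted for each gene it reached, so a neighbouring protein-coding gene with an end nearer to an optimal summit is named, and also one nearer to a pooled entry given here for a gene without an optimal summit. Gene coordinates are those of the same annotation on ce11.

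Cohesin is a ring-shaped complex that entraps DNA, and HIM-1 is its SMC-1 subunit in C. elegans. The complex keeps sister chromatids together and extrudes loops of chromatin. Oocytes of this nematode are loaded with mRNAs and proteins on which the embryo runs before its own genome is transcribed, and many of these mRNAs are kept silent by RNA-binding proteins until a set time or place. At fertilization the oocyte secretes a layered eggshell of vitelline proteins, chitin and chondroitin proteoglycans, which blocks further sperm and keeps the embryo's osmotic balance.

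Chromatin was immunoprecipitated from whole hermaphrodite young adults of strain YL577, 47 hours after synchronization as starved L1 larvae. These are transgenic worms that express HIM-1-eGFP fusion proteins, with a GFP-FLAG tag at the C terminus of HIM-1. The 2 libraries, biological replicates 1 and 2, form 1 group without a second condition, and are not stated to be separate cultures. The labels' description gives an anti-GFP antibody and their antibody field gives him-1. Whole animals hold germ line and soma together, so the share of nuclei bound and the occupancy per nucleus cannot be told apart, and no transcript was measured.

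The optimal list, which the authors cut from the pooled list by how well ranks repeat between replicates, held 2051 peaks. Their signals ran from 60.76 to 496.7 in the peak caller's units. The relaxed list from the pooled replicates held 18314 entries, of which the optimal peaks are the strongest, and includes background. The highest signal among the pooled entries left out was 60.75, so the optimal list is in effect a cut on pooled signal. A single optimal peak can thus rank low in a replicate. The replicates' own relaxed lists held 22720 and 24220 entries. Signals rank peaks within a list and are not compared between lists, and read depth is unknown.

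The sequences around the strongest 5' summits show what the binding sites of these genes look like, and in particular where they hold a motif described further on. The 201 bases centred on the summit are printed for 5 of the 6 strongest 5' summits of these genes. They were read from the RefSeq sequence of WBcel235 (ce11) on the strand of the gene, 5' to 3'. Capitals mark the letters of a searched motif, which are TATAAA or TTTNNCGC (C or G at each N) on either strand. The windows are chrIII:4489013-4489213 for cpg-1 on the plus strand, chrIII:12426640-12426840 for pie-1 on the plus strand, chrIII:5727917-5728117 for egg-1 on the plus strand, chrIV:5469791-5469991 for rme-2 on the plus strand and chrIV:13512284-13512484 for puf-3 on the minus strand.
cpg-1: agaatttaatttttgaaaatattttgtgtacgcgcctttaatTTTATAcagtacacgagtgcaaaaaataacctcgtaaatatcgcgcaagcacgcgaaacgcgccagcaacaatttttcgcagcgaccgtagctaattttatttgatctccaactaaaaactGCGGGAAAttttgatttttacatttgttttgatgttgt
pie-1: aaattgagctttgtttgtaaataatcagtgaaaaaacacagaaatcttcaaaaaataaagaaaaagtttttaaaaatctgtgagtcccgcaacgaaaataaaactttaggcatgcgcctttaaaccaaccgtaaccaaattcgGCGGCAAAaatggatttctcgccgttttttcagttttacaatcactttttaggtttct
egg-1: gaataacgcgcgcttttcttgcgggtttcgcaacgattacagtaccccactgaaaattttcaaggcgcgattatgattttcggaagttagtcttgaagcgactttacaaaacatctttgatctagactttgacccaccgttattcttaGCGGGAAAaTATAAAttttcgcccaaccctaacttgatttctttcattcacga
rme-2: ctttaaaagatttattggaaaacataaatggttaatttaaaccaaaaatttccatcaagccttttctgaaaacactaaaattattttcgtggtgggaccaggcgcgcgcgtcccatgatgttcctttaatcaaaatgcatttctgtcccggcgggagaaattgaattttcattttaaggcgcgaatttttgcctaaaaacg
puf-3: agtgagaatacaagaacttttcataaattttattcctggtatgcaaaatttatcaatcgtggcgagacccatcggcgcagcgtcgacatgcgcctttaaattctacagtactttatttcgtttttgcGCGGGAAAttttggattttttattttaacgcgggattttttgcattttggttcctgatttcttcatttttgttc
In 4 of these 5 windows a match to TTTNNCGC was found, and each of the 4 holds it as GCGGGAAA or GCGGCAAA on the gene strand. The rme-2 window held no match to any of the searched motifs.

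Of the 41 genes, 17 (41.5%) had an optimal summit within 500 bp of the 5' end, with a 95% interval of 26.3 to 57.9%. Over all protein-coding genes the share was 4.47%. An optimal summit lay within 500 bp of the 3' end at 13 of the 41 (31.7%, interval 18.1 to 48.1%), against 6.80% of all protein-coding genes. Body summits were found at 3 of the 41 (7.32%, interval 1.54 to 19.9%), against 3.68%, a difference within the counting error. The counts depend on the limits set, since within 250 bp of the 5' end they fell to 10 of 41 (24.4%, against 2.64%), and among optimal peaks above the list's median signal to 7 at the 3' end and 0 in the body. In any of these zones 24 genes (58.5%, interval 42.1 to 73.7%) held an optimal summit, against 11.5%, and 7 (17.1%, interval 7.15 to 32.1%) held one at both ends, against 0.916%.

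The genes lie on the autosomes, where chromosome I carries 11, II carries 10, III carries 7, IV carries 10 and V carries 3, and 0 lie on X. Against the 17242 autosomal genes alone, the same shares were 5.05% for 5' ends, 7.63% for 3' ends, 3.88% for bodies, 12.6% for any zone and 1.04% for both ends. In the relaxed pooled list, 29 of the 41 genes (70.7%) had a 5' summit, against 25.5% of all protein-coding genes. The count was 14 (34.1%, against 15.8%) within 250 bp, and 17 (41.5%, against 4.99%) with a −log10 q-value of at least 2. For 3' ends these values were 35 (85.4%) against 31.0%, and for any zone 40 (97.6%) against 49.8%. No optimal summit at these genes lay within 250 bp of a tRNA, rRNA, snRNA or snoRNA gene.

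**Figure D1:**
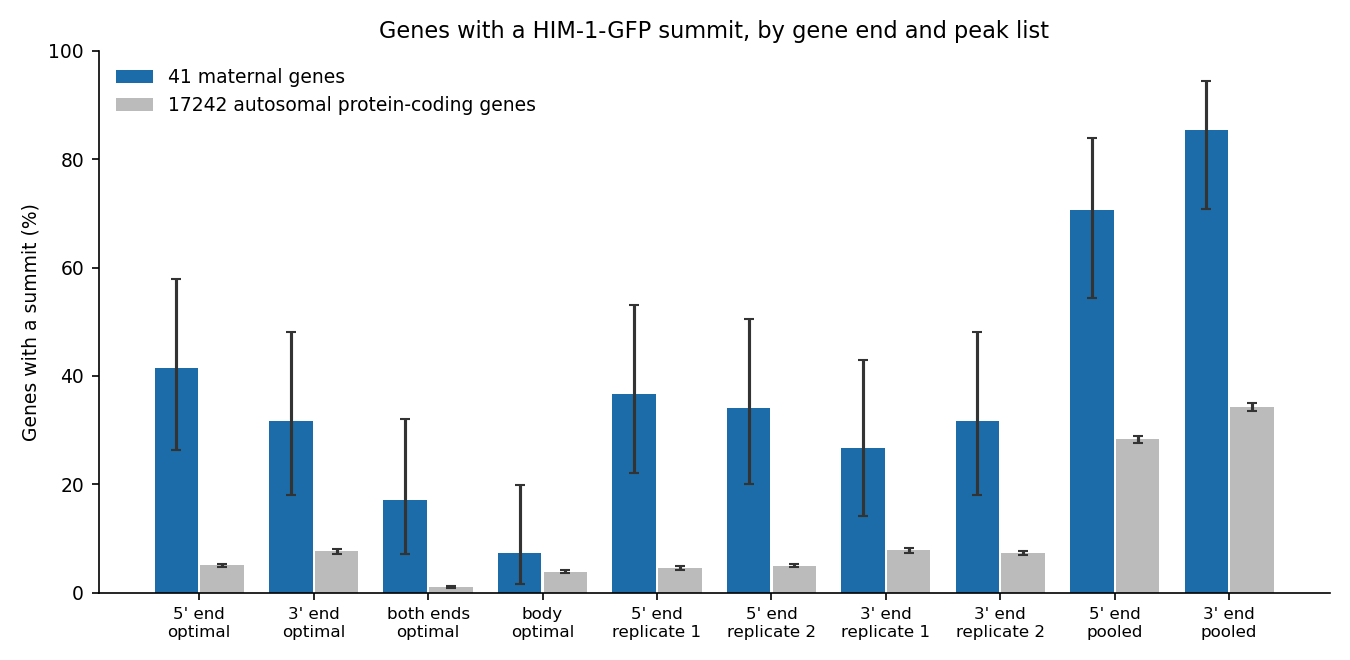
Percentage of genes with a HIM-1-GFP summit (y axis) by gene end and peak list (x axis), for the 41 maternal genes (blue) and the 17242 autosomal protein-coding genes (grey). Bars start at 0, lines are 95% Clopper-Pearson intervals, and the replicate bars use each replicate's 2051 strongest entries. The blue bars stand above the grey ones at both ends in every list, and only in gene bodies does the interval of the 41 genes (1.54 to 19.9%) span the autosomal share of 3.88%.

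The strongest binding among the 41 genes was at cpg-1 (chrIII:4489359-4491392, plus strand), which encodes a chondroitin proteoglycan of the inner eggshell. Its 5' summit, 246 bp upstream of the gene, had a signal of 232.1 and ranked 41 of the optimal peaks. A summit 207 bp past its 3' end had a signal of 317 and ranked 9, and a further one 412 bp past it had 139. The 3' end of cpg-1 faces that of atf-7 across 234 bp, so the first of these lies between both genes and the second in the 3' UTR of atf-7. In replicate 1 the nearest entries had signals of 88.84 at the 5' end and 148.7 and 60.24 past the 3' end, and in replicate 2 they had 143.8, 173.4 and 57.26. Both replicates placed the 3' summit higher in their ranks (9 and 12) than the 5' summit (87 and 27).

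The partner gene cpg-2 (chrIII:7102092-7103990, minus strand), whose proteoglycan acts redundantly with CPG-1, was also bound at both ends but with lower signals. Its 5' summit lay 278 bp upstream with a signal of 96.22, from 42.77 in replicate 1 and 53.36 in replicate 2, at nearly the same rank in each (828 and 836). Its 3' summit, 155 bp past the gene and in the 3' UTR of the facing gene ZK418.11, had a signal of 64.04. The replicates differed there, with 18.7 (rank 5451) in replicate 1 and 55.96 (rank 761) in replicate 2. The third gene of the group, cpg-3, had no optimal summit, and its strongest pooled entry, of 44.36, lay 348 bp past its 3' end and 168 bp from the 5' end of R06C7.6.

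Chitin synthase, which lays down the chitin layer of the shell, is encoded by chs-1 (chrI:7554855-7559916, plus strand), and this gene was bound at both ends. The 5' summit lay 138 bp upstream with a signal of 99.91, from 32.5 in replicate 1 and 64.74 in replicate 2. The 3' summit lay within the gene, in an intron and 250 bp before the 3' end, with a signal of 63.58, from 22.95 in replicate 1 and 31.45 in replicate 2. It was 173 bp from the 5' end of T25G3.3, the next gene on the same strand, and neither replicate held it among its 2051 strongest entries.

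Genes of the outer vitelline layer had an optimal summit at the 3' end only or none. The chitin-binding protein gene cbd-1 (chrIV:11372991-11377627, plus strand) had a summit 436 bp past its 3' end with a signal of 92.34, from 52.7 in replicate 1 and 44.22 in replicate 2. The 3' end of the facing gene fbxb-76 was nearer, at 108 bp. The 5' end of cbd-1 had a pooled entry of 31.98 and no optimal summit. Neither perm-2 nor perm-4, whose proteins join the same layer, had an optimal summit. Their strongest pooled entries had signals of 26.07 for perm-2 and 22.52 for perm-4, near the lowest signal of 21.7 in that list.

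Among the egg genes, which act in sperm entry and egg activation, egg-1, egg-3 and egg-4 had 5' summits and egg-2 and egg-5 had no optimal summit. EGG-1 and EGG-2 are oocyte surface proteins with LDL receptor repeats that are needed for the sperm to enter. The egg-1 (chrIII:5728180-5730159, plus strand) summit lay 163 bp upstream with a signal of 139.5, from 50.87 in replicate 1 (rank 533) and 86.84 in replicate 2 (rank 227). For egg-2, the only pooled entry was in the body, with a signal of 22.11.

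EGG-3, EGG-4 and EGG-5 are phosphatase-like proteins without activity that hold the kinase MBK-2 at the oocyte cortex. The egg-3 (chrII:10882408-10884441, minus strand) summit lay 124 bp upstream with a signal of 79.66, and its replicates differed in rank, with 51.43 (rank 513) in replicate 1 and 25.63 (rank 3976) in replicate 2. At egg-4 (chrI:3932210-3934813, plus strand) the summit lay 349 bp upstream with a signal of 89.46, from 37.65 in replicate 1 and 46.13 in replicate 2, at like ranks (1119 and 1152). The 3' end of T21E3.2 was nearer, at 121 bp. For egg-5 no list held an entry at the 5' end, and the strongest pooled entry had 48.9 at the 3' end. The kinase gene mbk-2, one of the main regulators of the change from oocyte to embryo, had no optimal summit and a pooled entry of 45.77 that lay 365 bp from its 3' end and 360 bp from that of F49E11.2.

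The yolk receptor gene rme-2 (chrIV:5470026-5473174, plus strand), whose LDL receptor-type protein takes up yolk from the body cavity into the oocyte, was bound 135 bp upstream of its 5' end. The signal was 112.6, from 49.68 in replicate 1 and 62.36 in replicate 2, and the ranks in the replicates were close (575 and 585). At the 3' end rme-2 had a pooled entry of 42.49 and no optimal summit.

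**Figure D2:**
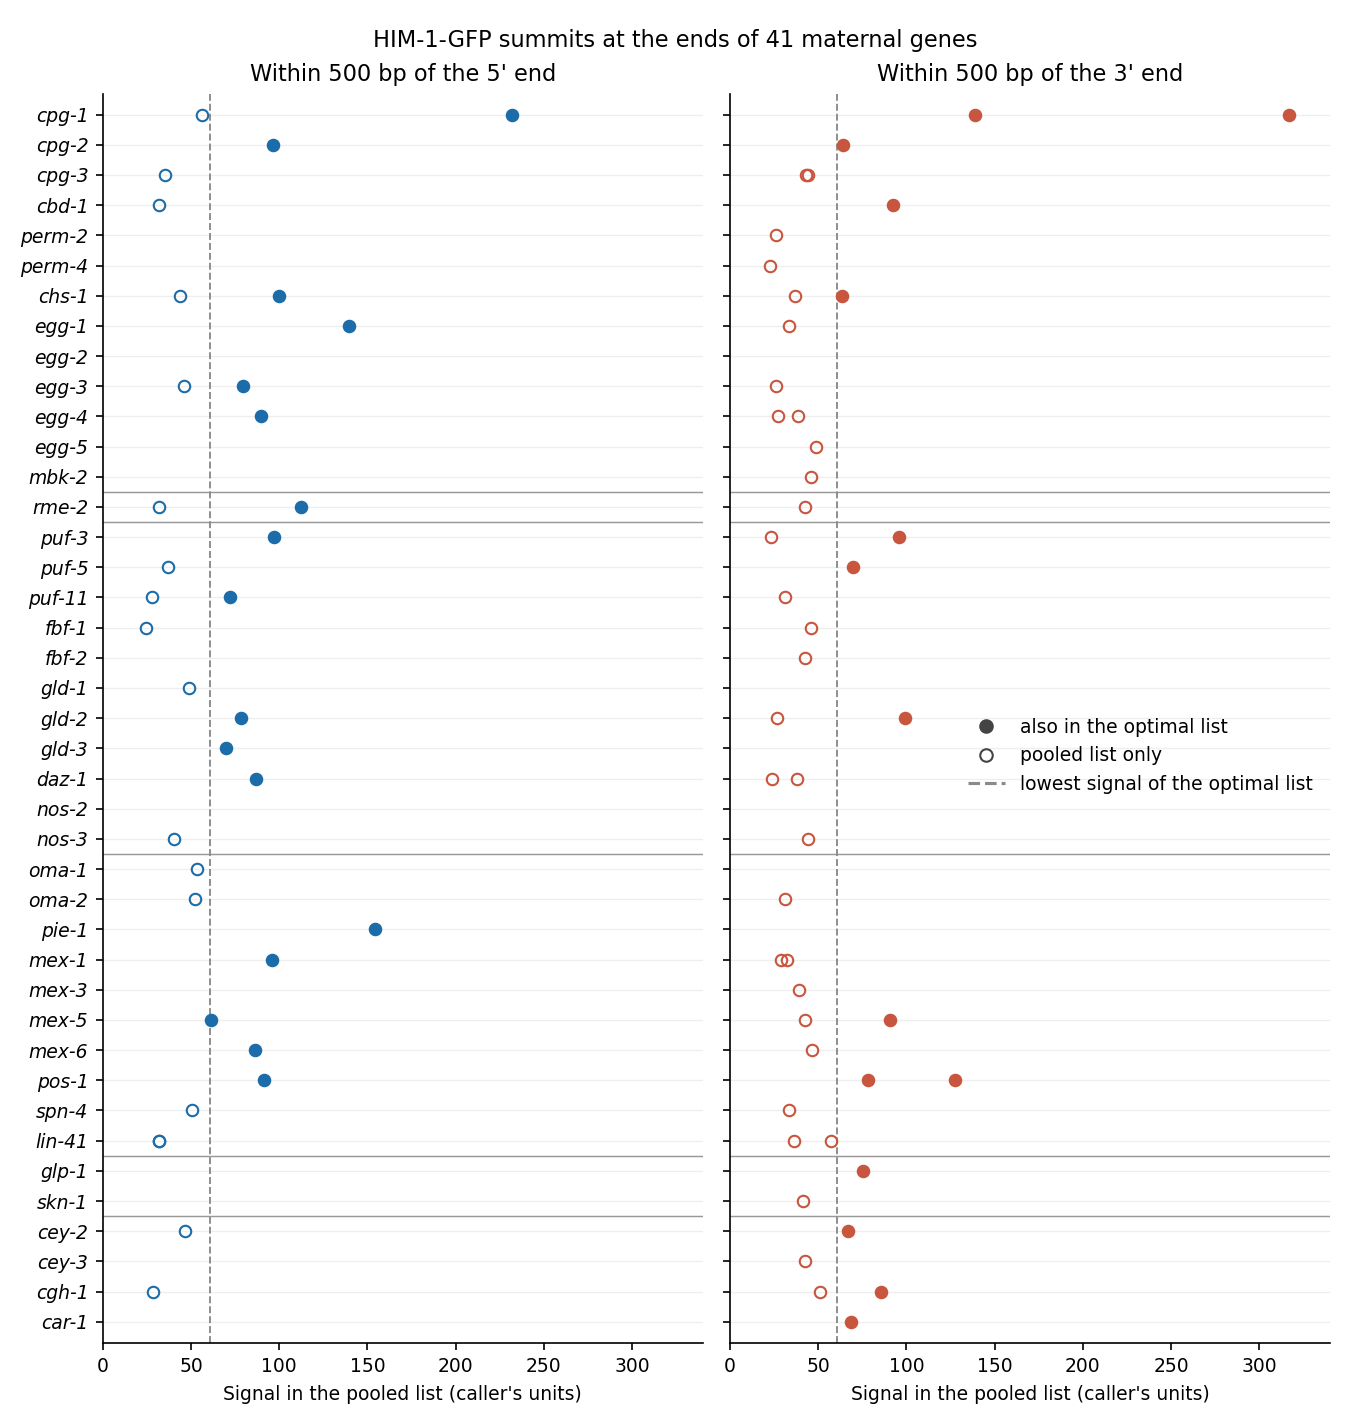
Signals in the pooled list (x axis, peak caller's units) of every summit within 500 bp of the 5' end (left) and the 3' end (right) of the 41 genes, listed down the page by role with grey lines between roles. Filled points are also in the optimal list and open points are not. The dashed line is the lowest signal of the optimal list, 60.8, and the points farthest right are the cpg-1 summits at 232.1 (5') and 317 (3').

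Of the 11 germline RNA regulator genes of the PUF, GLD, DAZ and Nanos groups, 5 had an optimal 5' summit and 3 an optimal 3' summit. PUF proteins bind short elements in 3' UTRs and repress the mRNA, and PUF-3, PUF-5 and PUF-11 act in oogenesis. The puf-3 (chrIV:13510307-13512162, minus strand) gene was bound at both ends, at 222 bp upstream with a signal of 96.94 and at 176 bp past the 3' end with 96.05. Both sites lie within afmd-2, the first in an intron and the second in a coding exon. At the 5' site the replicates had 33.54 (rank 1437) and 64.07 (rank 539), and at the 3' site they had 48.48 (rank 612) and 46.58 (rank 1129), so replicate 1 ranked the 3' site higher and replicate 2 the 5' site.

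For puf-11 (chrIV:6421585-6423497, plus strand), the summit lay 260 bp upstream with a signal of 71.86, from 26.81 in replicate 1 (rank 2375) and 46.51 in replicate 2 (rank 1131). At puf-5 (chrII:8575541-8577787, plus strand) the summit lay 30 bp past the 3' end with a signal of 69.45, from 32.22 and 35.48 in the replicates, and the 5' end of the next gene on the same strand, F54C9.9, was 232 bp away. Neither fbf-1 nor fbf-2, whose PUF proteins maintain germline stem cells, had an optimal summit. Their strongest pooled entries were at the 3' ends, with 46.04 for fbf-1 and 42.56 for fbf-2.

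GLD-2 is a cytoplasmic poly(A) polymerase that activates stored mRNAs, and GLD-3 is its KH-domain partner. The gld-2 (chrI:6369748-6386194, plus strand) summit at the 5' end lay 120 bp inside the gene, in its 5' UTR, and 66 bp before the nearest start among its 6 annotated transcript starts. The signal there was 78.5, from 36.14 in replicate 1 and 45.13 in replicate 2, at ranks of 1212 and 1214. A second summit 264 bp past the 3' end, in a coding exon of the facing gene klu-2, had a signal of 98.94. The nearest entries there had 39.01 in replicate 1 and 37.21 in replicate 2, and replicate 2 held a stronger one at the same 3' end (59.53, rank 658). The gld-3 (chrII:7132643-7137522, plus strand) summit lay 366 bp upstream with a signal of 70.01, from 35.45 and 36.91 in the replicates. It was nearer to T07F8.4, which starts on the other strand 245 bp away.

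The DAZ-family gene daz-1 (chrII:5456305-5458609, plus strand), needed for oogenesis, had a summit 196 bp upstream with a signal of 86.6, from 47 in replicate 1 and 42.58 in replicate 2. The STAR-domain repressor gene gld-1 had no optimal summit and a pooled 5' entry of 48.57, which lay 356 bp upstream and 93 bp from the 3' end of T23G11.4. Of the Nanos genes, nos-3 reached 44.27 at its 3' end and 40.1 at its 5' end in the pooled list. The other, nos-2, was the 1 gene of the 41 with no pooled entry in any zone, and replicate 1 alone had an entry 118 bp upstream (signal 14.37, rank 10437).

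Among the 10 genes of RNA-binding proteins of the oocyte and early embryo, 5 had an optimal 5' summit. These 5 encode CCCH zinc finger proteins, as do oma-1 and oma-2, which had none. The strongest was pie-1 (chrIII:12426893-12429195, plus strand), whose protein holds transcription off in the embryo's germline precursors. Its summit lay 153 bp upstream with a signal of 154.3 and ranked 204 of the optimal peaks. Replicate 2 ranked it higher, with 107.5 (rank 106), than replicate 1 with 49.09 (rank 596). No list held an entry at the 3' end of pie-1.

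The zinc finger protein POS-1 controls translation and cell fate in the posterior of the embryo, and pos-1 (chrV:8414086-8415254, plus strand) was bound at both ends. The 5' summit lay 283 bp upstream with a signal of 91.31, and the replicates differed there, with 21.7 (rank 3837) in replicate 1 and 65.81 (rank 506) in replicate 2. Summits 166 and 367 bp past the 3' end had signals of 127.7 and 78.44, both in the 393 bp between pos-1 and the facing gene lmd-3. The first of these was among the strongest of each replicate (66.25, rank 254, and 71.76, rank 408). The second was not, with 24.84 (rank 2804) in replicate 1 and 14.81 (rank 13593) in replicate 2.

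MEX-5 and MEX-6 set up the anterior-posterior axis of the zygote and MEX-1 acts in the germline precursors. At mex-1 (chrII:11968637-11972330, plus strand) the summit lay 118 bp upstream with a signal of 95.78, from 31.9 in replicate 1 and 60.48 in replicate 2. At mex-6 (chrII:9524174-9526359, plus strand) it lay 407 bp upstream with 86.22, from 49.38 (rank 587) in replicate 1 and 33.34 (rank 2344) in replicate 2. The mex-5 (chrIV:13353723-13356104, plus strand) summit, 342 bp upstream, had the lowest 5' signal of the group, 61.54, from 30.37 and 32.52 in the replicates. It was nearer to the 5' end of rec-8, 188 bp away, which encodes a meiotic kleisin subunit of cohesin and starts on the other strand 529 bp from mex-5. A summit 165 bp past the 3' end of mex-5, in a coding exon of W02A2.8, had a signal of 90.91, from 42.31 and 46.17 in the replicates.

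The remaining genes of this role had an optimal summit in the body or none. In mex-3 (chrI:127285-134270, plus strand), which encodes a KH-domain protein, a summit lay in an intron 943 bp inside the gene with a signal of 78.86, from 32.87 and 47.22 in the replicates. This was 469 bp upstream of the nearest of its 5 annotated transcript starts. Pooled 5' entries just below the optimal list were found at oma-1 (53.59) and oma-2 (52.26), whose zinc finger proteins are needed for oocyte maturation, and at spn-4 (50.7), which encodes an RRM protein. The neighbour's end was nearer in each case, the 3' end of C09G9.5 (76 bp) for oma-1, that of F43H9.4 (152 bp) for oma-2 and the 5' end of spe-39 (173 bp, against 375 bp for spn-4) for spn-4. The TRIM-NHL gene lin-41, needed for oocyte growth, reached 57.02 at its 3' end, the highest signal of any of the 41 genes without an optimal summit.

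Of the remaining regulators, glp-1 (chrIII:9092241-9099698, plus strand), which encodes the Notch receptor of germline stem cells and the embryo, had a summit 182 bp past its 3' end. The signal was 75.08, from 35.86 and 42.53 in the replicates, and the site lies in a coding exon of the facing gene ZK507.1. No pooled or replicate entry lay at the 5' end of glp-1. The transcription factor gene skn-1, which specifies endomesoderm in the embryo, reached 41.16 at its 3' end in the pooled list, with the 3' end of csn-5 nearer (106 bp, against 146 bp).

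Of the 4 genes of mRNP storage proteins, 3 had an optimal 3' summit, against 6.80% of all protein-coding genes. At the 5' end 0 of 4 had one, against 4.47%, and with 4 genes this cannot be told apart from that share. Pooled 5' entries below the optimal list lay at cey-2 (46.51, 66 bp upstream) and cgh-1 (28.63, 123 bp inside the gene). At cgh-1 (chrIII:7495320-7497832, minus strand), a DEAD-box RNA helicase gene, the summit lay 398 bp past the 3' end with a signal of 85.43, from 28.06 (rank 2164) in replicate 1 and 55.41 (rank 775) in replicate 2. At car-1 (chrI:12904470-12906040, plus strand), which encodes an LSm-domain partner of CGH-1, it lay 158 bp past with 68.48, from 35.35 and 36.66. The Y-box protein gene cey-2 (chrI:5619569-5620669, plus strand) had a summit 181 bp past its 3' end with 66.87, in an intron of F46F11.7 and 71 bp from that gene's 5' end. The nearest entries there had 27.24 in replicate 1 and 22.93 in replicate 2, and replicate 2 held a stronger one at the same 3' end (47.49, rank 1085). For cey-3 the strongest pooled entry was 42.44 at the 3' end.

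By where they were bound, the 24 genes with an optimal summit fell into 4 sets. Both ends were bound at cpg-1, cpg-2, chs-1, puf-3, gld-2, mex-5 and pos-1. The 5' end without the 3' end was bound at 10, which are egg-1, egg-3, egg-4, rme-2, puf-11, gld-3, pie-1, mex-1, mex-6 and daz-1. The 3' end without the 5' end was bound at 6, which are cbd-1, puf-5, glp-1, cey-2, cgh-1 and car-1, and the body alone at mex-3. The 17 genes without an optimal summit had strongest pooled signals of 22.11 to 57.02, with a median of 45.07 over the 16 that had an entry. The values nearest the lower limit of the optimal list were 61.54 at mex-5 inside it and 57.02 at lin-41 outside it.

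At the 5' ends the summits lay upstream of the gene. Of the 17, 16 (94.1%, interval 71.3 to 99.85%) lay before it, and their positions had a median of -222 bp and a range of -407 to 120 bp. Of 656 optimal summits at any protein-coding 5' end and away from small RNA genes, 512 (78.0%, interval 74.7 to 81.2%) lay before the nearest 5' end, and the median position was -138 bp. The 2 intervals overlap. The 17 were measured from the listed gene's own 5' end, also at gld-3 and mex-5, where another 5' end was nearer. The 2 medians are thus not measured alike. The median signal was 91.31 at the 17 summits and 76.57 at the 656.

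For 15 of the 17 genes the nearest protein-coding 5' end was their own, the exceptions being gld-3 and mex-5. With 3' ends counted as well, another gene's end was nearer at 5 of the 17, which adds egg-4 (T21E3.2), mex-6 (AH6.17, 244 bp) and daz-1 (dhs-5, 132 bp). Among 5' ends of genes of every biotype, the own end was nearest for 14 of the 17. The difference is puf-11, where the 5' end of a gene that is not protein-coding was nearer. The next protein-coding gene upstream, taken at any distance, was on the other strand for 21 of the 41 genes, and 8 of these had an optimal 5' summit. With an upstream neighbour on the same strand, 9 of 20 did. The neighbour could be far away, as at mbk-2 (13171 bp), and a gene containing the member, as afmd-2 contains puf-3, was passed over. The shares over all protein-coding genes by arrangement were not computed.

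Past the 3' ends lay 14 of the 15 3' summits, at a median of 181 bp from the 3' end, and the exception was that of chs-1. Another gene's end was nearer at 8 of the 15, which are both summits of cpg-1 (atf-7, 28 and 177 bp), the farther one of pos-1 (lmd-3, 27 bp) and those of cpg-2 (ZK418.11, 112 bp), cbd-1, chs-1, mex-5 (W02A2.8, 156 bp) and cey-2. The median signal of the 15 was 85.43, against 80.77 over 1066 optimal summits at any protein-coding 3' end. How many of the 1066 lay past the 3' end, or nearer to another gene's end, was not computed. The placement is thus not shown to be particular to these genes. The next protein-coding gene downstream, again at any distance, faced 27 of the 41 genes, and 8 of these had an optimal 3' summit. With a downstream neighbour on the same strand, 5 of 14 did. The facing gene could be far away, as at fbf-2 (5356 bp), and shares over all protein-coding genes by arrangement were not computed. At chs-1, puf-5 and cey-2 the summit also lay within 500 bp of another gene's 5' end.

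**Figure D3:**
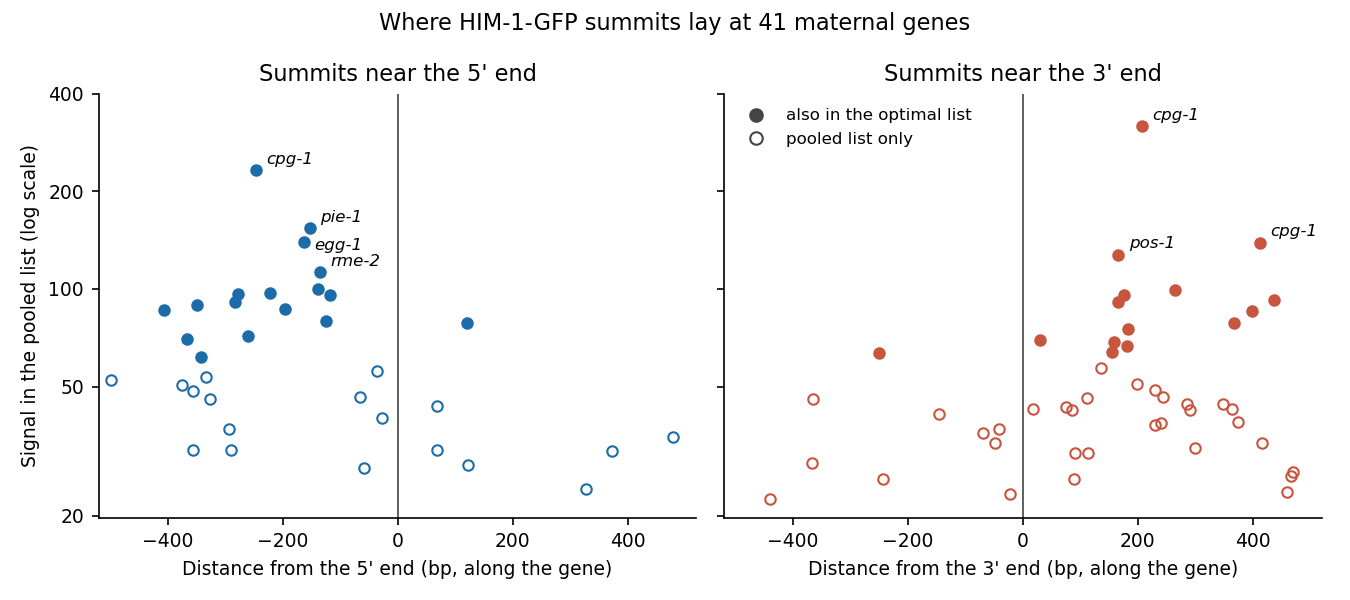
Distance of each pooled summit from the 5' end (left) or the 3' end (right) of its gene in bp along the gene (x axis), against its signal (y axis, log scale). Filled points are also in the optimal list, and 0 is the gene end. Of the filled 5' points 16 of 17 lie left of 0, upstream of the gene, and of the filled 3' points 14 of 15 lie right of 0, past the gene. The share past the 3' end over all genes was not computed.

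The 33 distinct optimal summits at these genes were found in both replicates' own lists. Each had an entry of each replicate within 200 bp, and the replicates' summits lay 1 to 174 bp apart, with a median of 31 bp. Those lists are relaxed, and the optimal list was itself made from both replicates, so such matches are likely for any optimal summit. The share over all optimal summits was not computed. Among the 2051 strongest entries of both replicates were 22 of the 33, against 1370 of 2051 optimal summits in all (66.8%). The 5' summits of 12 of the 17 genes were in both, and those of egg-3, puf-11, mex-5, mex-6 and pos-1 were not.

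From the strongest entries of replicate 1 alone, 15 of the 41 genes (36.6%) had a 5' summit, against 4.05% of all protein-coding genes, and 11 (26.8%) a 3' summit, against 6.96%. From replicate 2 alone 14 (34.1%) had a 5' summit, against 4.42%, and 13 (31.7%) a 3' summit, against 6.60%. Ranks differed between the replicates by more than 3 times at 7 of the 33 summits. These were the 5' summits of cpg-1, egg-3, mex-6, pie-1 and pos-1, the 3' summit of cpg-2 and the farther 3' summit of pos-1. How often ranks differed by this much over all optimal summits was not computed.

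**Figure D4:**
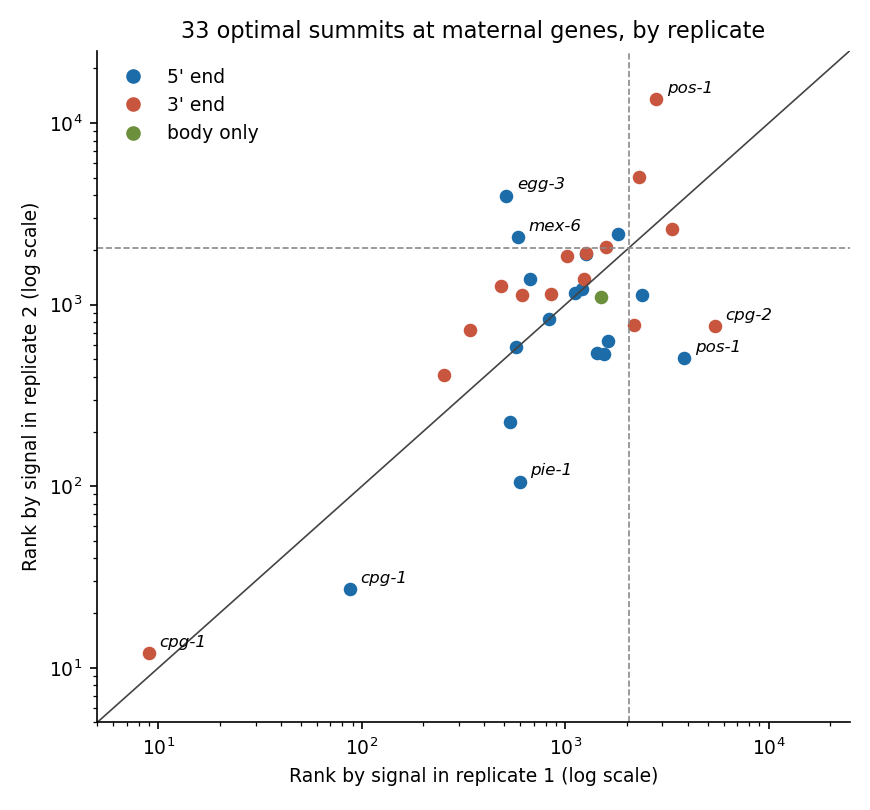
Rank by signal of the nearest entry in replicate 1 (x axis) and replicate 2 (y axis), both on log scales, for the 33 optimal summits at the 41 genes, with colours for the gene end. The solid line marks equal ranks and the dashed lines rank 2051. The cpg-1 summits stand at the low end (ranks 9 and 12, and 87 and 27), and the named points farthest from the line include egg-3 (513 and 3976) and pos-1 (3837 and 506).

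Near-identical gene copies could share reads, and how reads with several matches were handled is not given in the sources used here. The gene bodies of egg-4 and egg-5 were 98.8% identical with a shared run of 889 bases and in their 500 bp upstream the longest shared run was 22 bases. The part of shared reads in the signals of egg-4 (89.46 at the 5' end) and egg-5 (no 5' entry) was not tested. The bodies of egg-1 and egg-2 were 67.7% identical, and their upstream sequences shared at most 10 bases.

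For the other pairs the longest shared runs are given beside the calls. Upstream summits were found for puf-3 and puf-11 (bodies 87.1% identical, longest shared upstream run 32 bases), for mex-5 and mex-6 (68.1%, 11 bases) and for cpg-1 and cpg-2 (52.9%, 10 bases). For oma-1 and oma-2 (60.8%, 10 bases) the pooled 5' entries had 53.59 and 52.26. For fbf-1 and fbf-2 (90.9%, 42 bases upstream) the 3' entries of 46.04 and 42.56 lie past gene ends whose next 500 bp shared at most 8 bases. The pair cey-2 and cey-3 (67.4%) had 3' signals of 66.87 and 42.44, with at most 9 shared bases past the ends.

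A sequence of the form TTTNNCGC, with C or G at each N, was found within 100 bp of 8 of the 17 5' summits (47.1%, interval 23.0 to 72.2%). These letters are the consensus of E2F transcription factors, whose C. elegans member EFL-1 pairs with DPL-1. The share was 15.1% (99 of 656, interval 12.4 to 18.1%) at optimal summits of any protein-coding 5' end away from small RNA genes, and 8.82% at all optimal summits. The 8 genes are cpg-1, cpg-2, egg-1, chs-1, puf-3, puf-11, pie-1 and mex-1. Of the genes with a 5' summit, the eggshell genes egg-3 and egg-4, the zinc finger genes mex-5, mex-6 and pos-1, and rme-2, gld-2, gld-3 and daz-1 held no match. At the 15 3' summits 2 windows held it (13.3%). A match describes the letters and does not show binding by a factor. The motifs, like the genes, were chosen with earlier results of these data known.

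The 9 matches at these genes lay at -94 to 97 bp from the summit along the gene. Of the 9, 7 read on the strand opposite to the gene, and 7, not all the same ones, had their middle on the gene side of the summit. At cpg-1, egg-1, puf-3, puf-11 and one of the cpg-2 sites the letters were TTTCCCGC on the other strand, which reads GCGGGAAA on the gene strand, as printed for cpg-1, egg-1 and puf-3. These matches lay 31 to 76 bp from the summit toward the gene. At pie-1 it was TTTGCCGC, 47 bp from the summit, and at mex-1 TTTCCCGC on the far side of the summit from the gene. At chs-1 and the other cpg-2 site the letters were TTTCGCGC on the gene strand. Among the 656 summits the matches were on the other strand only in 51, on the gene strand only in 44 and on both in 4. The share of matches on the gene side was not computed for the 656.

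The same letters were searched at 1 fixed distance from every gene. That distance, 222 bp upstream of the 5' end, is the median of the 17 summits themselves, so the windows are not independent of them. In the 201 bases centred there, 7 of the 17 genes with an optimal 5' summit held a match (41.2%, interval 18.4 to 67.1%). They were cpg-1, cpg-2, egg-4, puf-3, puf-11, gld-3 and mex-1. Of these, egg-4 and gld-3 held no match around the summit, whereas egg-1, chs-1 and pie-1 held one only there. Of the 24 genes without an optimal 5' summit, 3 held a match (12.5%, interval 2.66 to 32.4%), which were egg-5, cbd-1 and spn-4. Over all protein-coding genes the share was 3.61%. The intervals of the genes with and without an optimal 5' summit overlap.

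The other motifs searched, each on both strands, occurred at few of the 17 summits. The TATA-like TATAAA was found at 5 (29.4%, interval 10.3 to 55.96%), which are cpg-1, egg-1, egg-3, egg-4 and chs-1, against 18.9% of the 656. The GC box CCGCCC was found at 1 (gld-3) against 7.16%, GAGAGA at 1 (mex-6) against 15.4% and TTTTTTTT at 2 (gld-2 and pos-1) against 118 of the 656. GTGGGAA, the core of LAG-1 sites, was found at 0 against 2.44%, and CTGCGTCT at 0 against 5.79%. With 17 summits each of these shares has an interval that spans the share over the 656. The letters of CCGCCC can overlap those of TTTCCCGC, and those of TTTTTTTT can overlap TTTNNCGC. GC content within 100 bp of the summits had a median of 34.8% at the 17, against 37.3% at the 656.

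Genes that work with these 41 but were not listed with them had optimal 5' summits at a share near the background and 3' summits at a higher one. Both these lists and the 41 genes were chosen with earlier results of these data known. The shares are therefore not a test of a difference between them. Over 5 lists, 3 of 62 genes (4.84%) had an optimal 5' summit, against 4.47% of all protein-coding genes. A 3' summit was found at 21 (33.9%), against 6.80%, and a pooled 5' entry at 21 (33.9%), against 25.5%. The 3' summits of gna-2, ifet-1 and wee-1.3 lay within 250 bp of a tRNA, rRNA, snRNA or snoRNA gene. Another gene's 5' end was nearer than the gene's own 3' end at gna-2 (T23G11.11, 60 bp), cdk-1 (T05G5.4, 102 bp) and ccr-4 (wdr-46, 186 bp). Of 15 genes for chondroitin and the permeability barrier of the egg, 1 had an optimal 5' summit (dgtr-1, an acyltransferase gene, signal 67.54, 260 bp upstream), 6 had a 3' summit and 5 a pooled 5' entry. Of 23 other germline RNA regulators, 0 had an optimal 5' summit, 7 a 3' summit and 8 a pooled 5' entry. Of 7 genes of GLP-1/Notch signalling, 1 had a 5' summit (epn-1, an epsin gene, signal 61.54, 397 bp upstream), 2 a 3' summit and 3 a pooled 5' entry. Of 11 genes of oocyte maturation and the meiotic spindle, 1 had a 5' summit (cul-3, a cullin of a ubiquitin ligase, signal 113.6, 379 bp upstream), 6 a 3' summit and 5 a pooled 5' entry. The 6 vitellogenin genes, whose yolk proteins are made in the intestine and taken up through RME-2, had 0 summits at either end in the optimal list and 0 pooled 5' entries, and 5 of them lie on X. Shares over X alone were not computed, so these counts do not set the 6 genes apart.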

How the data were processed

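HIM-1-GFP chromatin immunoprecipitation sequencing of 2 replicates was used as deposited peak lists on ce11. Per the labels' file lists, peak calling by the authors used a control, was run on each replicate and on pooled alignments, and the authors then thresholded the pooled list by the irreproducible discovery rate to give the optimal list. Each deposited entry has a signal from the authors' peak caller, a q-value that the authors deposited as −log10, and a summit position. Which aligner and peak caller were used is not given in the sources used here. The ce10 lists were not used.

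Summits were placed on Ensembl release 115 models of WBcel235. No ce11 peak ran past a chromosome end, and the last peak of II (at 15279421) and that of X (at 17718942) reached the final base. Coordinates are 1-based. Counts used Python 3.11.15, numpy 2.4.6 and scipy 1.17.1, sequence comparison Biopython 1.88 (global alignment, identity over the longer gene body), and plots matplotlib 3.10.9. Intervals are 95% Clopper-Pearson intervals and cover counting error over genes or summits only. Ranks in a replicate are those of the entry nearest to the optimal summit, within 200 bp. The counting was tested on simulated data with planted summits. With 1 group there is no comparison between conditions, and no enrichment test was made.

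The 41 genes, the related lists and the motifs were chosen with earlier results of these data known. Every one of the 41 is named, and of the related genes those with an optimal 5' summit. Related genes are also named where the 3' summit lay near a small RNA gene or nearer to another gene's 5' end. The sequences printed were to be those of the 6 strongest 5' summits outside UTRs and chromosome I, of which 1 is not reported here. Alternatives were other windows, optimal peaks above the list's median signal, each replicate alone, every transcript start, peak intervals in place of summits, and a q-value limit on the pooled list.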

Additional observations from a re-analysis of the deposited data

How the results depend on the processing

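Of 30 alternatives run on 7 counts, 25 stayed within 1.5 times the reported count and 5 did not. Within 250 bp of the 5' end, 10 genes had an optimal summit (24.4%, against 2.64% of all protein-coding genes) in place of 17, and 14 in place of 29 had a pooled entry (34.1%, against 15.8%). Among optimal peaks above the median signal of that list, 7 in place of 13 had a 3' summit (17.1%, against 3.29%) and 0 in place of 3 a body summit (against 1.87%). With a −log10 q-value of at least 2, 17 in place of 29 had a pooled 5' entry (41.5%, against 4.99%). From 1 replicate at a time the counts ran from 14 to 15 at the 5' end, 11 to 13 at the 3' end, 2 to 3 in the body and 22 to 23 in any zone. Within 1000 bp 19 genes had a 5' summit (against 6.22%), and counting every transcript start gave 18. No paired analysis was possible because the study has 1 group. Unknown depth and 41 genes limit the precision, and a gene without an optimal summit is not shown to be unbound.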

Other observations

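Where 1 end of a gene held neighbouring summits of the pooled list, most stood at a similar distance from each other. Over 18 such neighbours at the 41 genes the spacing had a median of 205.5 bp and a minimum of 199 bp. Of them 16 were under 300 bp apart, and the others were at mex-1 (667 bp) and lin-41 (663 bp). The spacing over all neighbouring pooled summits was not computed, so it is not shown to be particular to these genes. Whether the peak caller sets it was not tested. The optimal 3' summits of cpg-1 were 205 bp apart and those of pos-1 were 201 bp apart. In both cases the peak intervals of the neighbours overlap, so the number of summits is not a count of separate sites.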
